A study of Mus musculus with 24 samples.

Results

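The peaks described here are the m6A peaks of mouse kidney mRNA that lay wholly outside coding sequence, with their midpoint in a 3′ UTR. A peak was included when it shared no base with the coding sequence (CDS, stop codon included) of any protein-coding transcript on its strand. Each gene was represented by its longest coding transcript in the GENCODE M21 annotation of GRCm38. The midpoint of the peak had to fall in the 3′ UTR of that transcript, which had to have 2 or more exons. Of the 91013 peaks listed for 12 kidneys, 1390 (1.53%) met this rule. Of these, 1272 lay wholly inside the exons of the 3′ UTR, and the others reached beyond them. The 1390 peaks lay in 417 of the 7509 genes with a peak (5.55%). A further 13439 peaks had their midpoint in a 3′ UTR but touched CDS or belonged to a transcript that the rule leaves out, so that 9.37% of the 14829 peaks centred in a 3′ UTR met the rule.

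The 3′ UTR of an mRNA follows the stop codon and holds the binding sites of microRNAs and of proteins that set the stability, location and translation of the message. N6-methyladenosine (m6A) is written by the METTL3-METTL14 complex, mostly in the RRACH sequence (R is A or G, H is A, C or T), and is read by YTH domain and IGF2BP proteins. It is known to be most frequent around stop codons, from where it extends into the 3′ UTR.

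MeRIP-seq, in which fragmented RNA is enriched with an antibody against m6A, was carried out on kidneys of male C57BL/6 mice aged 8 weeks, with 4 mice in each of 3 groups. Control mice received saline by daily injection for 14 days and then vehicle, and mice of the injury group (IG) received saline for 14 days and then cisplatin at 20 mg/kg, a platinum drug toxic to renal tubules. Mice of the treatment group (TG) received berberine, a plant alkaloid, at 20 mg/kg per day for 14 days before the same dose of cisplatin. All kidneys were taken 72 h after cisplatin or vehicle. The comparisons were IG against control (IvC) and TG against IG (TvI), which share the IG kidneys. Each kidney had its own list of peaks, with 5901 to 9579 entries and a score per peak, which is -10 times the log10 of the p-value that the peak caller gave it. Read counts are not part of the lists, so the depth behind each peak is unknown, and a missing peak can lie below the calling threshold. In whole kidney, fewer cells of a type and less RNA or less m6A per cell cannot be told apart. Of 20 genes that mark kidney cells, 10 had a peak of any kind in at least 1 kidney, with 2 to 7 per list. Among 8 genes each, 5 endothelial, 4 immune and 4 stromal markers had a peak in at least 1 kidney, and 1 to 5 genes of such a list had one in a given kidney.

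Overlapping peaks of the 12 kidneys (1 bp or more in common) formed a locus. At 289 loci, in 284 genes, every peak met the rule (3′ UTR-only loci, 1021 peaks), and at 139 further loci only some of the peaks did (mixed loci, 369 peaks). The sequences below are 25 bases of GRCm38, read on the strand of the gene, from 3′ UTR-only loci on which the results turn. Capitals mark the GGACT, or where none was present the RRACH, nearest to the middle of the bases that most kidneys shared. The first 9 belong to loci with a peak in all 12 kidneys.
Nupr1, chr7:126623374-126623398, minus strand: ccacccttccAGACCcagcaaaagg
Ybx3, chr6:131365192-131365216, minus strand: tgtatcccggGAACCtgcacaggcg
Ammecr1, chrX:142853495-142853519, minus strand: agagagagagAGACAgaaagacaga
Kitl, chr10:100097059-100097083, plus strand: aagaatgcaaGGACTcggaaaacat
Csnk1e, chr15:79418799-79418823, minus strand: ggccagtcagAGACAagtcccaaga
Slc25a48, chr13:56472170-56472194, plus strand: gccaccctgaGGACTggctctttaa
Zfp275, chrX:73356230-73356254, plus strand: gaaacatctcAGACAcagaagattg
Fbxl17, chr17:63058268-63058292, minus strand: ccgctacatgGGACTcttcagtcac
Ccna2, chr3:36565355-36565379, minus strand: tgggtcactgGGACTctgaaaggtg
The next 7 belong to loci listed in the 4 kidneys of one group and absent from those of another.
Hes7, chr11:69123667-69123691, plus strand: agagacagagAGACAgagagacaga
Thsd7a, chr6:12314316-12314340, minus strand: gagagacaagGAACAaatggatgaa
Id4, chr13:48263120-48263144, plus strand: gggaaaaataAAACTtaaattcact
Ankrd12, chr17:65967846-65967870, minus strand: gcctctgcctGGACTctgtactacg
Nubpl, chr12:52311381-52311405, plus strand: cacttaattgGGACTtgctaacatt
P2ry1, chr3:61007389-61007413, plus strand: ctgcttcctaGGACTctgcagtcca
Ccdc148, chr2:58822435-58822459, minus strand: gcaatataggAGACCctgctgaaaa
All 16 stretches lay inside the 3′ UTR. Those of Ammecr1 and Hes7 consist mostly of A and G and hold RRACH more than once. The bases shared by most kidneys held 11 RRACH sites in 523 bp at Ammecr1 and 13 in 642 bp at Hes7. Of these bases 33.5% at Ammecr1 and 37.1% at Hes7 were repeat-masked in the reference, as were 38.2% at Thsd7a, 61.5% at Nubpl and 42.1% at Nuak1, a locus absent from TG, and whether reads of other repeat copies were placed there was not tested.

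The peaks were spread over the body of the 3′ UTR. The median distance of the midpoint from the stop codon, along the transcript, was 1109 nt (quartiles 619.5 and 1967 nt), and 339 peaks (24.4%) lay beyond 2000 nt. The edge nearest to the stop codon was a median of 613 nt away, and in 29.3% of the 1388 peaks for which it lay in an exon it was within 100 nt. Because no base may be coding, a midpoint close to the stop codon requires a narrow peak, and the low density there follows from the rule. Per Mb of 3′ UTR in genes with a peak, each kidney had 0.713 ± 0.745 peaks (SD, n = 12) at 0 to 100 nt and 13.9 ± 5.03 at 300 to 400 nt. The density was 12.7 ± 3.42 at 1500 to 2000 nt, 10.2 ± 2.96 at 2000 to 3000 nt and 7.20 ± 2.14 at 3000 to 5000 nt, and in every bin from 300 to 3000 nt its mean lay between 10.2 and 13.9. The genes had long 3′ UTRs, with a median of 2318 nt against 1164 nt in 6812 other genes with a peak, those with 2 or more exons and an annotated stop codon. A longer 3′ UTR leaves more room for a peak that meets the rule. The midpoint was in the exon of the stop codon for 1034 peaks and in a later exon for 356, and in the last exon for 1389 of the 1390.

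**Figure D1:**
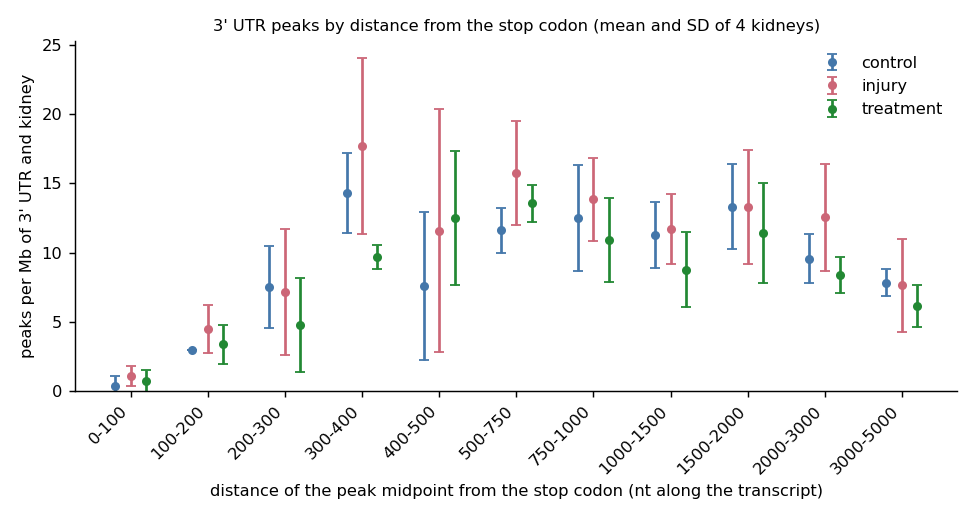
The vertical axis is the number of 3′ UTR peaks per Mb of 3′ UTR and kidney and the horizontal axis the distance of the midpoint from the stop codon in nt, in bins of unequal width. Points are group means and bars the SD of 4 kidneys. Density is lowest in the first bins, as the rule requires, and the groups overlap in most bins.

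The peaks were wide and their scores were low. The median width was 887 ± 66.1 bp (SD, n = 12 kidneys), against 347 ± 26.7 bp for all other peaks of the same lists, a difference of 539 bp. It is given with no test, since the rule that chose the peaks used their ends and placed their midpoints in 3′ UTRs. Of the other peaks, 64.3% began and ended exactly at the limits of an annotated exon. Of the peaks in 3′ UTRs 75 (5.40%) did, while 495 shared 1 edge with an exon limit and 820 shared none. The low share follows largely from the rule, since a peak as wide as the exon of the stop codon holds CDS. All 75 lay in a later exon, where they made up 21.1% of the peaks. The median score of all 3′ UTR peaks was 42.2 (quartiles 21.9 and 104.5). Ranked by score within its list, the average 3′ UTR peak stood at percentile 39.0 ± 2.31 (SD, n = 12 kidneys) and the average other peak at 50.2 ± 0.0536. The difference of -11.2 percentile points was negative in 12 of 12 kidneys (exact sign-flip permutation test over kidneys, two-sided, p = 0.000488, the smallest that 12 kidneys allow). Peaks that held a stop codon stood at 54.6 ± 0.198 in control kidneys, 52.8 ± 0.738 in IG kidneys and 52.3 ± 0.657 in TG kidneys (SD, n = 4 each), above the 3′ UTR peaks of every kidney.

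The 3′ UTR-only loci were mostly found in few kidneys. A single kidney held 122 of the 289 loci (42.2%), and 12 loci (4.15%) were found in all 12 kidneys, whereas of all 16801 loci of the series 23.1% were found in 1 kidney and 14.4% in all 12. This contrast is set in part by the definition, since each further kidney can turn a locus into a mixed one. Of the 428 loci with at least 1 peak that met the rule, 28.5% were found in 1 kidney and 8.64% in all 12. A comparison of single peaks does not depend on the kind of locus. Among peaks with a score from 40 to 80, a peak in all 3 other kidneys of the group was present for 41.6 ± 10.9% of the 3′ UTR peaks and 49.96 ± 6.32% of the other peaks (SD, n = 12 kidneys), a difference of -8.37 percentage points (exact sign-flip permutation test over kidneys, p = 0.0234, adjusted p = 0.0469 over 4 score ranges). At scores of 80 and above the shares were 73.3 ± 8.60% and 81.3 ± 4.35%, with a difference of -7.95 points (p = 0.00830, adjusted p = 0.0332, the same permutation test). Below a score of 20 and from 20 to 40 the differences of 3.25 and -2.26 points did not pass the test (permutation test, adjusted p = 0.270 and 0.373). The range from 80 has no upper limit, and within each range the 2 sets of peaks were not matched for score or width. The part of score and width in these differences was not tested.

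**Figure D2:**
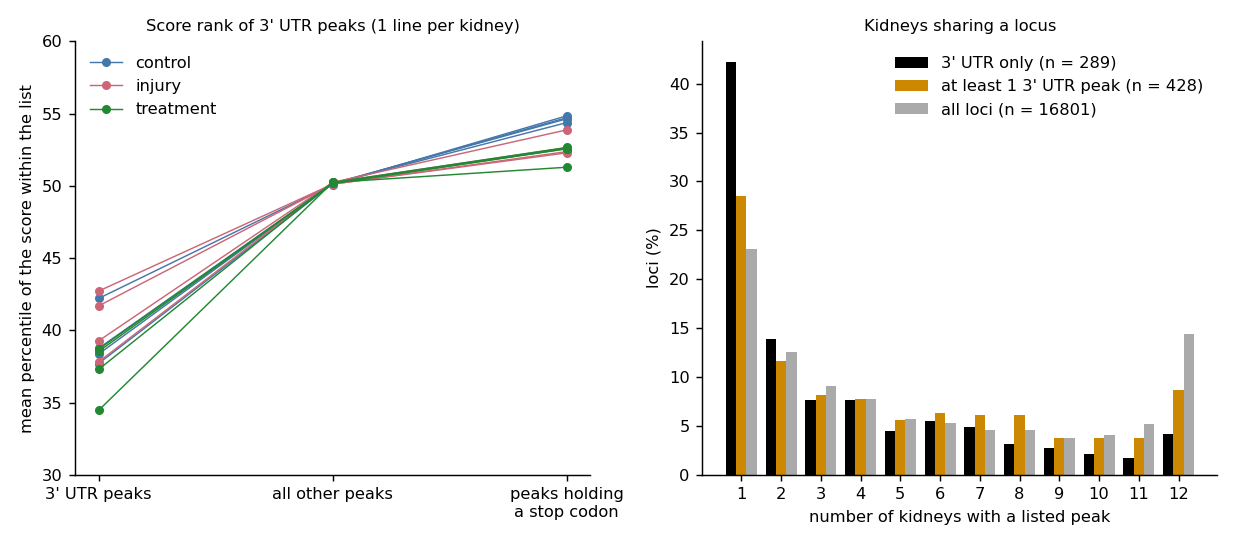
Left: the vertical axis is the mean percentile of the score within the list and each line is a kidney, coloured by group. The 3′ UTR peaks of all 12 kidneys lie between 34.5 and 42.7, below the other peaks and the peaks holding a stop codon. Right: bars give the percentage of loci found in a given number of kidneys, in black for 3′ UTR-only loci (42.2% in 1 kidney), which the definition favours at low numbers, in orange for loci with at least 1 3′ UTR peak (28.5%) and in grey for all loci of the series (23.1%).

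The sequence under the peaks was searched for short motifs on the strand of the gene and compared with the parts of the same 3′ UTRs in which no kidney had a peak. RRACH occurred 16.2 ± 0.264 times per kb in the peaks and 13.8 ± 0.262 times per kb in the peak-free 3′ UTR (SD, n = 12 kidneys), 1.17-fold more often (two-sided exact sign-flip permutation test on the log2 ratio, p = 0.000488, higher in 12 of 12 kidneys). On the opposite strand the same stretches had fewer sites than peak-free sequence, 0.858-fold. GGACT, one of the sequences that RRACH covers, was 1.28-fold more frequent in the peaks on the gene's strand and 1.27-fold on the opposite strand. In the 50 nt to each side of the midpoint it was 1.43-fold more frequent on the gene's strand and 0.957-fold on the other. AAGAA, a purine pentamer without the RRACH core, had the largest excess of the 5 motifs searched, with 4.01 ± 0.50004 against 2.18 ± 0.102 sites per kb, 1.83-fold (permutation test, adjusted p = 0.000610 over the 5 motifs), and a deficit on the opposite strand (0.775-fold). Around the midpoint the excess of AAGAA was 2.83-fold and that of RRACH 1.26-fold. ATTTA, the core of AU-rich elements that mark short-lived mRNAs, was less frequent in the peaks, at 0.690-fold (adjusted p = 0.000610, the same permutation test), and so was AATAAA, the polyadenylation signal, at 0.902-fold (permutation test, adjusted p = 0.00488). Both were also less frequent on the opposite strand, at 0.666-fold and 0.688-fold. The GC content was 45.7 ± 0.546% in the peaks and 42.7 ± 0.496% in the peak-free 3′ UTR (SD, n = 12; exact sign-flip permutation test, p = 0.000488), and its part in the motif counts was not tested. The share of bases in lower case (repeat-masked) in the reference was 20.3 ± 1.19% and 20.1 ± 1.51% (exact sign-flip permutation test, p = 0.847). Among windows of 101 nt around the midpoints of 286 loci, 78.3% held RRACH, against 74.2% of the 251658 windows of that length in all 3′ UTRs. For AAGAA the shares were 25.2% and 17.5%, for GGACT 12.9% and 8.62%, for ATTTA 8.04% and 15.5%, and for AATAAA 4.55% and 7.24%. The 12 lists share many loci and the same reference sequence. The p-values for motifs, GC and repeats therefore measure the spread between lists and not that between loci, and the window shares were not tested. A match describes the sequence and does not place a modified base.

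Loci that all 12 kidneys shared included genes of stress response, growth factor signalling and the cell cycle. Nupr1, a small chromatin protein induced by cell stress, had the highest mean score, and its peak covered nearly the whole 3′ UTR of 344 nt (chr7:126623246-126623579). Its scores were 710, 355, 453 and 502 in control kidneys, 430, 283, 657 and 401 in IG kidneys and 639, 384, 307 and 702 in TG kidneys, and the groups overlapped throughout. Ybx3, a cold-shock domain protein that binds RNA and DNA, had scores of 251, 278, 312 and 224 in controls, 1023, 481, 321 and 481 in IG and 157, 263, 201 and 552 in TG (chr6:131364858-131365405). All 4 IG values lay above the 4 control values, and the TG values overlapped both groups. At Kitl, which encodes stem cell factor, the ligand of the receptor KIT, scores ran from 182 to 509 in controls, from 35.6 to 507 in IG and from 244 to 612 in TG. Its 3′ UTR peak (chr10:100096018-100097612) was centred 772.5 nt from the stop codon of a 3′ UTR of 4435 nt. Csnk1e, casein kinase 1 epsilon of the circadian clock, had scores from 80.4 to 573 over the 12 kidneys. Slc25a48, a mitochondrial carrier, had scores from 15.07 in the fourth IG kidney to 626 in the first control kidney. Ccna2, cyclin A2, which drives DNA replication and entry into mitosis, had scores from 14.5 to 210, and its locus also covers exons of Exosc9 on the opposite strand. The remaining loci of the 10 with the highest mean scores were those of 9530077C05Rik (91.8 to 305), the zinc finger gene Zfp275 (88.6 to 295), the F-box gene Fbxl17 (55.2 to 291) and Ammecr1 (58.3 to 792), which is described with the changed scores. Exons of a gene on the opposite strand underlay 21 of the 289 loci and those of another gene on the same strand 8, and for these the origin of the RNA is uncertain.

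The number of 3′ UTR peaks and their share of the list were higher on average in IG than in control kidneys, by margins that missed the test in the full lists. Control kidneys had 101, 117, 127 and 108 such peaks, IG kidneys 137, 105, 182 and 107, and TG kidneys 97, 95, 89 and 125. The means were 113 ± 11.3, 133 ± 35.9 and 101.5 ± 16.03 (SD, n = 4 each), and the groups overlapped. The difference was 19.5 peaks in IvC (two-sided exact permutation test over 70 arrangements, p = 0.429) and -31.3 peaks in TvI (p = 0.171, the same permutation test). These values depended on the lists. Without the third IG kidney the IvC difference was 3.08 peaks. When each list was held to its 5901 highest-scoring peaks it was 28.5 peaks in IvC (exact permutation test, unadjusted p = 0.0286) and 1.25 in TvI. With scores of 71.3 or more, the median of all lists, the TvI difference was -18 peaks (exact permutation test, unadjusted p = 0.0286). As a share of the list the peaks made up 1.27 ± 0.145% in controls, 1.77 ± 0.343% in IG and 1.59 ± 0.177% in TG (SD, n = 4 each). In IvC the difference of 0.506 percentage points had p = 0.0571 (exact permutation test, adjusted p = 0.457 over 8 tests), with the second IG kidney, at 1.41%, within the control range of 1.13 to 1.41%. It was 0.483 points with an unadjusted p = 0.0286 (exact permutation test), the smallest that 4 against 4 kidneys allow, with the lists of equal length. In TvI the share differed by -0.187 points (exact permutation test, p = 0.343), by 0.0212 points with equal list lengths and by -0.0523 points without the third IG kidney. The median distance from the stop codon was 1131 ± 68.1 nt in controls, 1095 ± 80.5 nt in IG and 1045 ± 98.9 nt in TG (SD, n = 4 each; exact permutation tests, p = 0.543 in IvC and 0.457 in TvI). The IvC difference of -35.9 nt turned to 87.3 nt with equal list lengths and to 75.1 nt with scores at or over the median, neither past the test (exact permutation tests, p = 0.286 and 0.257). The mean score percentile was 39.3 ± 2.02, 40.4 ± 2.23 and 37.2 ± 1.96 (SD, n = 4 each), with differences of 1.12 in IvC and -3.13 in TvI (exact permutation tests, p = 0.457 and 0.114).

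**Figure D3:**
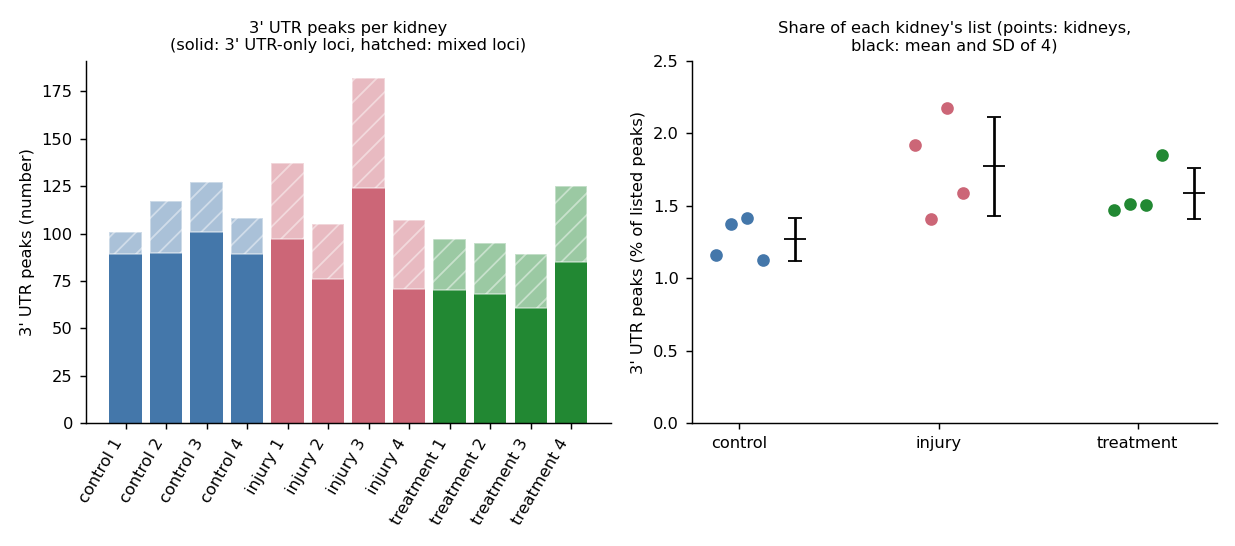
Left: bars give the number of 3′ UTR peaks of each kidney, solid in 3′ UTR-only loci and hatched in mixed loci, with control in blue, IG in red and TG in green. The hatched part is 12 to 27 in control kidneys and 29 to 58 in IG kidneys. Right: points give the share of each list in percent, and black marks the mean and SD of 4 kidneys.

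The peaks were also counted by the kind of locus. Whether a locus is mixed is decided by the same peaks, since a locus that touches CDS in one group and not in another is mixed by definition, and the division was made after the values were seen, so these counts are a description with no test. In 3′ UTR-only loci the peaks numbered 92.3 ± 5.85 in controls, 92.0 ± 24.1 in IG and 71.0 ± 10.1 in TG (SD, n = 4 each). In mixed loci, where kidneys differed in whether the peak reached the CDS, control kidneys had 12, 27, 26 and 19 peaks that met the rule, IG kidneys 40, 29, 58 and 36, and TG kidneys 27, 27, 28 and 40. The IG values lay above the control values, and the lowest TG value equalled the highest of the controls. The difference of the means was 19.8 peaks in IvC, and 14 without the third IG kidney. In TvI it was -10.3 peaks, -1.5 with equal list lengths and -4.5 without the third IG kidney. The mixed loci with a peak of any kind numbered 88 to 94 in controls, 79 to 105 in IG and 67 to 90 in TG. Over all listed peaks the share with exactly the limits of an exon was 64.4 ± 0.595% in controls, 62.1 ± 0.659% in IG and 63.4 ± 1.37% in TG (SD, n = 4 each; exact permutation tests, p = 0.0286 in IvC and 0.114 in TvI), and its part in the counts was not tested.

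At 5 of the 139 mixed loci at least 3 control kidneys had a peak that touched CDS and none had a 3′ UTR peak, while 3 or 4 IG kidneys had a 3′ UTR peak alone. The opposite pattern was found at 0 loci in IvC, and neither pattern at any locus in TvI. Klhl3, Ptgir, Tram2 and Tyw3 were among the 5. Klhl3 encodes the adaptor that delivers WNK kinases to the CUL3 ubiquitin ligase in the distal nephron. Its peak was 984 bp wide in all 4 control kidneys, and 883, 835 and 686 bp wide in the 3 IG kidneys that had it (chr13:58004221-58005204). In TG kidneys it was 892, 876, 943 and 820 bp wide and met the rule in all 4. Tyw3, an enzyme of wybutosine synthesis in tRNA, had a peak of 3772 bp, the length of an annotated exon, in each control kidney and of 1006, 1078, 868 and 1141 bp in IG kidneys. Its widest peaks in TG kidneys had 1016, 1285, 1087 and 1105 bp, and no TG or IG kidney overlapped with the controls. The peak of Tram2, a translocation-associated membrane protein, was 1363 to 1636 bp wide in controls and 1061 to 1093 bp in 3 IG kidneys. In the 2 TG kidneys that had it the peak was 1445 and 1440 bp wide, within the control range, and met the rule. The peak of Ptgir, the prostacyclin receptor, was 1856 to 2099 bp wide in controls and 1500, 1538, 1624 and 1990 bp in IG kidneys. In TG kidneys it was 1527, 2133, 2186 and 2098 bp wide, and the 3 wide ones touched CDS as in controls. These loci were picked for the pattern, so the widths are a description.

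**Figure D4:**
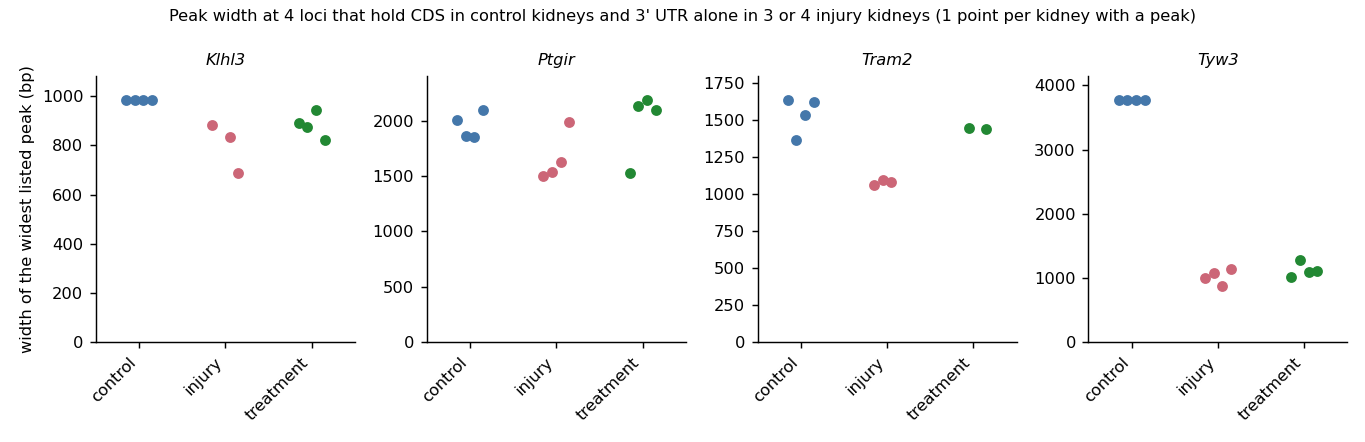
Each panel is a locus, the vertical axis the width in bp of the widest listed peak and each point a kidney with a peak, by group. The Tyw3 peak is 3772 bp wide in the 4 control kidneys and at most 1285 bp in the 8 others, and at Klhl3 the controls lie together at 984 bp.

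At the mixed locus of Dkk2, an inhibitor of Wnt signalling, 11 of 12 kidneys had a 3′ UTR peak beside one that touched CDS, a median of 1592 nt from the stop codon, with scores from 82.4 to 596. Ybx1, the paralog of Ybx3, had 1 peak in each of 11 kidneys, which met the rule in 8 and touched CDS in none. Those 8 had scores from 454 to 3100, a highest value that 3 peaks of the set reached. Whether reads were divided between these paralogs was not tested.

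In IvC, 5 of the 257 3′ UTR-only loci with a peak in either group were listed in 4 of 4 IG kidneys and 0 of 4 control kidneys (1.95%), where 1.35% of all loci were. In the other direction there were 8 (3.11%), where 2.73% of all loci were, so both shares were near the background. A single locus of 4 against 0 has p = 0.0286 (two-sided Fisher's exact test), and none passed adjustment over all 16061 loci (Fisher's exact test, lowest adjusted p = 0.701). The 5 loci found in IG were those of Hes7, Fam163b, Thsd7a, Ankrd12 and Id4. Hes7, a basic helix-loop-helix repressor of the segmentation clock, had scores of 36.7, 147, 158 and 64.7 in IG kidneys and 28.4, 49.1 and 33.2 in 3 TG kidneys. Thsd7a, a membrane protein of podocytes, had scores of 129, 41.9, 28.8 and 112 in IG and no peak in TG (chr6:12313933-12314829). Id4, a helix-loop-helix protein that blocks DNA binding of its partners, had scores of 18.2, 16.1, 83.5 and 22.4 in IG and no peak in TG (chr13:48262952-48263642). Ankrd12, an ankyrin repeat protein that binds nuclear receptor coactivators, was listed in all 4 IG and all 4 TG kidneys, with scores from 17.4 to 117. Fam163b had scores from 46.2 to 112 in IG. Thsd7a and Ankrd12 had other peaks outside the locus in all 4 control kidneys, so their mRNA was detected there. Hes7, Fam163b and Id4 had no other peak in any control or IG kidney, and for them absence of the peak and absence of the mRNA cannot be told apart.

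**Figure D5:**
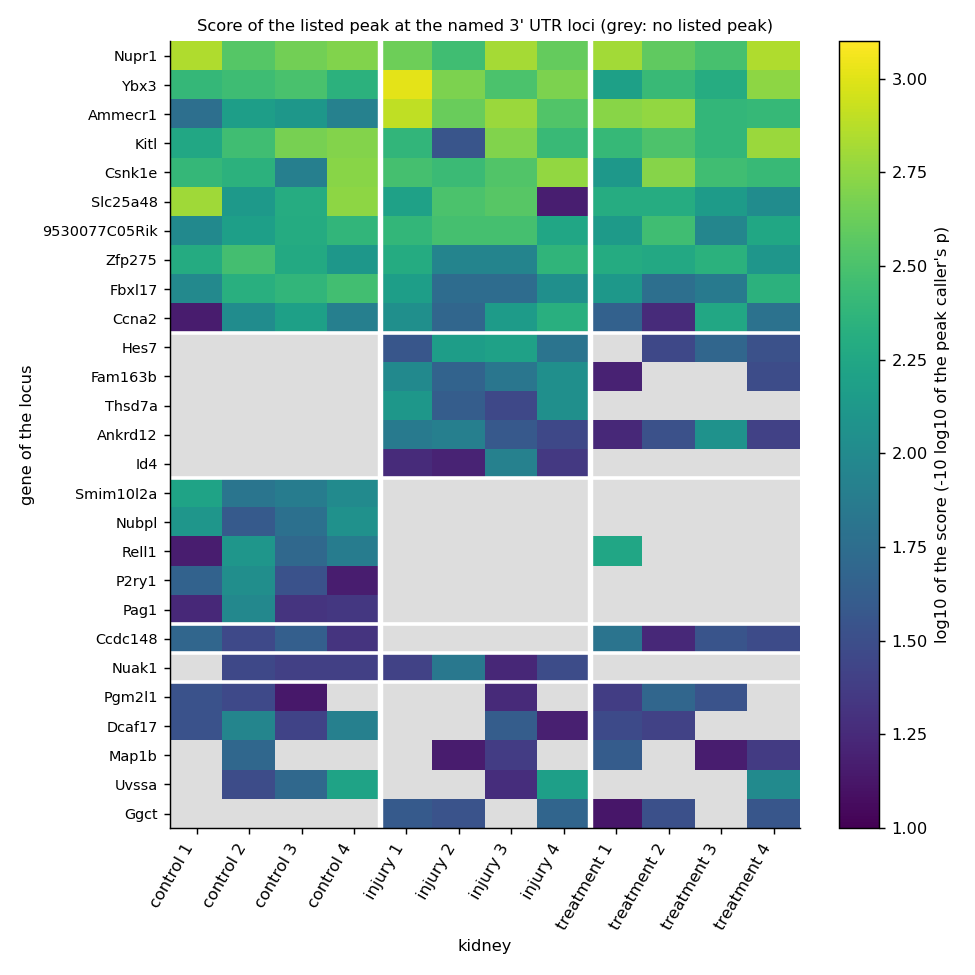
Rows are 3′ UTR-only loci named by gene and columns the 12 kidneys, with the log10 of the score as colour and grey where no peak was listed. From top to bottom the blocks hold loci found in all 12 kidneys, in IG and not control, in control and not IG, then Ccdc148 (TG and not IG), Nuak1 (IG and not TG) and the 5 farthest from the stop codon. Grey fills the control, IG or TG columns that the name of each block of 4 against 0 kidneys excludes, and scores there are mostly lower than in the first block.

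The 8 loci found in all control and no IG kidneys were those of Smim10l2a, Nubpl, Rell1, P2ry1, Pag1, Ccdc148, Dab1 and Spn, the last 3 having lower scores than the 5 that the rule for names selects. Nubpl, an assembly factor that inserts iron-sulfur clusters into mitochondrial complex I, had scores of 127, 39.4, 59.6 and 116 in controls. Smim10l2a, which encodes a small membrane protein, had 167, 66.1, 75.6 and 100.5. P2ry1, a receptor for extracellular ADP, had 45.6, 108, 33.8 and 14.7, and Rell1, a relative of the TNF receptor family member RELT, had 14.7, 127, 51.2 and 76.3. Smim10l2a, Nubpl, P2ry1 and Pag1 had no peak in TG kidneys either, and Rell1 had one in 1 TG kidney with a score of 176. Pag1, an adaptor that recruits the kinase CSK to the membrane, had other peaks in all 4 kidneys of both groups, while Nubpl, Smim10l2a and Dab1 had none. Rell1, Ccdc148 and Spn had other peaks in 2, 4 and 2 control kidneys and in 0 IG kidneys, and P2ry1 in 2 control kidneys and 1 IG kidney. In IG kidneys with no other peak of the gene, absence of the peak and absence of the mRNA cannot be told apart. Spn, the leukocyte surface protein CD43, had scores from 13.2 to 23.9 in controls. Of the 13 loci, 5 still stood at 4 against 0 kidneys with equal list lengths, namely Hes7, Fam163b, Ankrd12, Smim10l2a and Nubpl. When peaks under the median score were left out, 0 of the 13 did, and with peaks within 100 bp joined Pag1 had a peak in 3 IG kidneys. With smaller differences counted too, 120 loci were found in more IG than control kidneys (46.7%, against 26.3% of all loci) and 100 in fewer (38.9%, against 46.3%). At a difference of 3 or more kidneys there were 15 with more IG kidneys (5.84%, against 3.82% of all loci) and 21 with fewer (8.17%, against 8.95%). In just 1 kidney of the group were 97 loci in IG and 66 in controls. The 3′ UTR-only loci were more often found in 1 kidney than all loci were, so the shares are not matched for this.

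In TvI, 1 of 230 3′ UTR-only loci was listed in all TG and no IG kidneys (0.435%), where 0.225% of all loci were, and 3 were listed in all IG and no TG kidneys (1.30%), where 0.449% of all loci were. None passed adjustment over the 13357 loci (Fisher's exact test, lowest adjusted p = 1). The locus found in TG was that of Ccdc148, a coiled-coil protein, which was also among those found in all control and no IG kidneys (chr2:58821943-58822924). Its scores were 49.6, 28.9, 43.4 and 20.7 in controls and 64.2, 17.5, 35.2 and 30.1 in TG. Other peaks of Ccdc148 were listed in all control and TG kidneys and in no IG kidney. The 3 loci missing in TG were those of Thsd7a, Id4 and Nuak1. Nuak1, a kinase related to AMPK, had scores of 26.02, 69.0, 17.3 and 30.9 in IG and from 24.9 to 28.7 in 3 control kidneys, and 4 TG kidneys had other peaks of the gene. Thsd7a also had other peaks in all 4 TG kidneys, and Id4 had none. For Id4 and Ccdc148 absence of the peak and absence of the mRNA cannot be told apart. With equal list lengths only Ccdc148 of the 4 kept 4 against 0 kidneys. Of the 230 loci, 58 were found in more TG than IG kidneys (25.2%, against 22.6% of all loci) and 122 in fewer (53.04%, against 43.4%). At a difference of 3 or more kidneys there were 4 with more TG kidneys (1.74%, against 1.28% of all loci) and 9 with fewer (3.91%, against 3.21%).

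Scores could be compared where all 8 kidneys of a comparison had a peak, which left 15 of the 3′ UTR-only loci in IvC. Log2 scores were centred by the median of each kidney and fitted with limma over all 3040 such loci. At an adjusted p under 0.05, 8.26% of all loci were higher in IG and 5.92% lower, and 191 were higher and 252 lower without centring. Of the 15 loci, 1 was higher and 0 lower. Ammecr1, an X-linked gene of the deletion syndrome that joins Alport syndrome with midface hypoplasia and elliptocytosis, rose from scores of 58.3, 149, 130 and 84.1 in controls to 792, 413, 606 and 337 in IG kidneys. The change was 2.59 ± 0.43 (SE) on the log2 scale (limma, adjusted p = 0.00545), and no IG kidney overlapped with the controls. In TG kidneys its scores were 536, 580, 245 and 256, and the difference of TG and IG of -0.18 ± 0.42 (SE, log2 scale) did not pass the test (limma, adjusted p = 0.900). The peak was centred 2017 nt from the stop codon in a 3′ UTR of 4387 nt (chrX:142852957-142854104). Ybx3 was higher in IG by 1.22 ± 0.42 (SE, log2 scale) and 9530077C05Rik by 0.84 ± 0.34, with unadjusted p under 0.05 that did not pass adjustment (limma, adjusted p = 0.0749 and 0.124). The median difference over the 15 loci was 0.18, and that over all loci 0.09 (log2 scale). In TvI, limma called 0 of 18 such loci, and 0% of all 2778 loci in either direction, while 1 of the 18 and 313 of all had an unadjusted p under 0.05. That locus was Cmah, an enzyme of sialic acid synthesis, at -1.18 ± 0.39 (SE, log2 scale; limma, adjusted p = 0.343). The median difference over the 18 loci was -0.19, and 0.06 over all loci.

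Among loci in at least 6 kidneys, those farthest from the stop codon lay in Pgm2l1, Dcaf17, Map1b, Uvssa and Ggct. Pgm2l1, a glucose-1,6-bisphosphate synthase, had its peak 4639 nt from the stop codon in 3 control, 1 IG and 3 TG kidneys (scores 13.5 to 49.3). Dcaf17, a substrate receptor of the CUL4 ubiquitin ligase, was at 3882 nt (scores 15.3 to 90.1) and the microtubule protein Map1b at 3816 nt (scores 14.4 to 50.6). Uvssa, a factor of transcription-coupled repair, was at 3384 nt (scores 18.7 to 165). Ggct, gamma-glutamylcyclotransferase of glutathione breakdown, was at 2952 nt in 3 IG and 3 TG kidneys and no control kidney, with scores from 13.4 to 48.9. No gene had more than 1 locus in at least 6 kidneys.

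Of the 13 gene lists examined, 7 held no gene with a 3′ UTR peak. None was found among the 20 immediate early and short-lived mRNAs with a peak of any kind, the 14 such genes of the m6A machinery (a list without the IGF2BP readers), the 18 of 3′ end processing, the 7 of tubular injury or the endothelial, immune and stromal markers. Of 15 genes of microRNA function and 3′ UTR binding with a peak, 3 had one in the 3′ UTR. Ago4, an Argonaute protein, had a locus 2262 nt from the stop codon in 2 control, 4 IG and 2 TG kidneys (scores 13.6 to 69.4). Tnrc6c, its partner in silencing, had a 3′ UTR peak in 3 control kidneys and none in IG or TG, where 1 kidney each had a peak that touched CDS there, and Igf2bp2, an m6A reader counted in this list, in 1 control kidney. Phlda3, a p53 target that inhibits AKT, had one in 3 control kidneys with scores of 55.1, 30.4 and 27.9 and none in IG or TG, and no other kidney had a peak of any kind in the gene. Irx2, a homeobox gene of nephron patterning, had one in 3 IG kidneys (scores 15.1 to 57.9) and none in controls or TG, while all 12 kidneys had a peak of some kind in the gene. Slc22a6, the organic anion transporter OAT1, had one in 1 TG kidney (score 33.4) and Slc7a11, the cystine transporter, in 1 IG kidney (score 14.5). The remaining 5 lists had 1 such gene each, of 10 genes with a peak that mark kidney cells, 13 solute carriers (Slc22a6 in both), 10 p53 targets, 23 nephron transcription factors and 5 genes of oxidative stress. Over all genes with a peak the share with a 3′ UTR peak was 5.55%.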

How the data were processed

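Reads were trimmed with Cutadapt 1.9.3 and aligned with HISAT2 2.0.4 to mm10 (GRCm38), per the submitters' notes. The authors called peaks with MACS and deposited 1 list per kidney, with a score for each peak (-10 times the log10 of its p-value, lowest value 13.02) and a strand. The MACS version, threshold and control library are not given in the sources used here. The 12 input libraries were not analysed here. Coordinates are 1-based. Genes were the 21853 protein-coding genes of GENCODE M21 on the autosomes and chromosomes X and Y, and sequence was that of the RefSeq copy of GRCm38. Depth is unknown, and precision rests on 4 kidneys per group. Groups and replicate numbers came from the labels.

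Group means were compared with two-sided exact permutation tests, per-kidney differences with exact sign-flip tests, presence at a locus with Fisher's exact test and log2 scores with limma 3.58.1 (R 4.3.3), adjusted by the Benjamini-Hochberg method over all loci at a threshold of 0.05. The tests were run on simulated data with planted changes first. P-values measure the spread between single kidneys. Loci were named for the 10 highest mean scores among those in all 12 kidneys, up to 5 per comparison and direction of 4 against 0 kidneys or of changed scores, the 5 farthest from the stop codon among loci in at least 6 kidneys, and the members of 13 gene lists. The peaks and lists were chosen with earlier results of these data known. Peak widths, sharing by score, GC and repeat content, the motifs other than RRACH and GGACT, the opposite strand, the division by kind of locus, other peaks of the same gene and the loci named in that context were added after the values were seen. Python 3.11.15 with numpy 2.4.6, scipy 1.17.1, pandas 2.3.3 and pysam 0.24.0 was used. Some mixed loci are not reported here.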

Additional observations from a re-analysis of the deposited data

Results flagged for a closer look

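In 57 groups of 4 kidneys, each a measure per group or a score at a named locus, the gap between the most distant kidney and its nearest neighbour was set against the range of the group, and chance alone marks about 1 group in 20. It was large in 4 groups. The share of 3′ UTR peaks in TG lists had a ratio of 0.891, with 1.85% in the fourth kidney and 1.47 to 1.51% in the others. The score at Ankrd12 had a ratio of 0.840 in TG, with 117 in the third kidney against at most 33.4 in the others. At Id4 the ratio was 0.906 in IG, with 83.5 in the third kidney against at most 22.4, and at Pag1 it was 0.944 in controls, with 96.0 in the second kidney against at most 21.9.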

How the results depend on the processing

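The score rank against other peaks (-11.8 to -10.4 percentile points) and the excess of RRACH (0.22 to 0.34 on the log2 scale, and 0.35 for GGACT in its place) kept their direction and their side of the threshold under the 3 and 6 alternatives run. The share in IvC had an unadjusted p under 0.05 with only the own CDS excluded (0.528 points), whole peaks in 3′ UTR exons (0.474), equal list lengths (0.483) and scores at or above the median (0.452; exact permutation test, p = 0.0286 each). Leaving out 1 kidney gave 0.371 to 0.627, with an unadjusted p under 0.05 without the second IG kidney. Permutation p-values of the alternatives in this section are unadjusted. The share of the full lists in IvC had an adjusted p = 0.457 over 8 tests (exact permutation test). Equal list lengths gave 28.5 more peaks in IvC (permutation test, p = 0.0286), 1.25 more in TvI and a share of 0.0212 points more in TvI. Scores at or above the median gave 18 peaks fewer in TvI (-18, permutation test, p = 0.0286). Without 1 kidney the counts differed by 3.08 to 28.8 in IvC, lowest without the third IG kidney, and by -40.5 to -14.8 in TvI, the TvI share by -0.308 to -0.0523 points, the distance by -60.4 to -2.58 nt in IvC and -82.9 to -11.2 nt in TvI, and the score percentile by 0.338 to 2.10 in IvC. The distance in IvC turned to 87.3 nt with equal list lengths and 75.1 nt at scores at or above the median. Without 1 kidney the score percentile differed by -3.98 to -2.20 in TvI, past the threshold without the first IG kidney (permutation test, p = 0.0286). The number of loci of 4 against 0 kidneys was 7 and 2 with equal list lengths in IvC and TvI, 2 and 0 at scores at or above the median, 22 in IvC counting loci with at least 1 peak that met the rule, 14 to 17 in IvC and 4 to 7 in TvI without 1 kidney (7 without the first IG kidney). The loci called by limma in IvC were 0 at scores at or above the median (5 tested), 2 with only the own CDS excluded, 7 counting loci with at least 1 peak that met the rule, and 1 to 2 without 1 kidney (2 without the second control kidney). Without centring the median over all loci was -0.14 in IvC and -0.20 in TvI, 7 of the 15 loci were above 0 in place of 10, and Ammecr1 changed by 2.36. Ammecr1 kept its call under the 17 alternatives that gave it a value (2.36 to 2.83, adjusted p from 0.00535 to 0.0239, limma), and it had none at scores at or above the median. The cause of these shifts was not tested. Equal replicate numbers did not pair the kidneys (correlation of deviations over 2420 loci from -0.0150 to 0.109, and not every kidney correlated best with its own number), and with a replicate block Ammecr1 kept its call (limma, adjusted p = 0.0239), 161 of all loci were higher and 128 lower in IvC in place of 251 and 180, no call changed among the other results refitted, and over 4 pairs no permutation test can go below 0.125. At mixed loci the IvC difference was 16.3 peaks with equal list lengths and 8.75 at scores at or above the median, and leaving out 1 kidney gave 14 to 23.7.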

Other observations

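Several 3′ UTR-only loci outside the rule for named genes differed in the number of kidneys between groups, and they were picked after their values were seen. Kcne1, a potassium channel subunit of the proximal tubule, had scores of 457, 316, 309 and 228 in controls, 22.3 and 24.4 in 2 IG kidneys and no peak in TG (chr16:92346001-92347717). Foxo1, a forkhead factor downstream of insulin signalling, had a peak in 1 control kidney, all 4 IG kidneys (scores 42.8 to 276) and 3 TG kidneys. Trim5, a tripartite motif protein, had a peak in 1 control kidney with a score of 13.7, in 4 IG kidneys with scores from 40.03 to 178 and in 4 TG kidneys with scores from 20.3 to 91.8. Cp, the ferroxidase ceruloplasmin, had a score of 191 in 1 control kidney, 736 and 809 in 2 IG kidneys and 164 to 594 in 4 TG kidneys. Adh7, an alcohol and retinol dehydrogenase, was listed in 4 control, 1 IG and 2 TG kidneys, and Plcd4, a phospholipase C, in 4, 1 and 1. Cx3cr1, the fractalkine receptor of mononuclear phagocytes, was listed in 2 control, 1 IG and 4 TG kidneys. Of the bases its kidneys shared, 90.3% were repeat-masked in the reference, as were 42.9% at Trim5, 30.4% at Adh7 and at most 18.02% at the other loci named here. Whether reads of other repeat copies were placed there was not tested.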
